A study of Mus musculus with 10 samples.

Results

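Collagen genes were examined in the livers of mice in which the genes for the histone variant H3.3 were deleted in hepatocytes. They were taken as all genes of the count table with a symbol of the form Col, a type number, the letter a and a chain number, which gave 44 of 55421 gene identifiers. Of these, 40 had at least 10 counts summed over all livers and were tested, among 22449 genes tested in all. Col2a1, Col11a1, Col19a1 and Col26a1 fell below that minimum. All 44 were protein-coding genes of GENCODE release M21 on mouse genome build mm10, to which the gene coordinates below refer, whereas promoter coordinates are those of RefSeq.

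RNA was measured by poly(A) RNA-seq in whole livers of 10 male mice, the floxed ones being C57BL/6. H3.3 is encoded by H3f3a and H3f3b. The H3.3 KO group held 4 H3f3a fl/fl H3f3b fl/fl mice that received AAV8 Tbg-Cre, an adeno-associated virus in which the Tbg promoter drives Cre recombinase in hepatocytes. The WT Cre controls were 3 wild-type mice given the same virus, and the MCS controls were 3 H3f3a fl/fl H3f3b fl/fl mice given AAV8 Tbg-MCS, a vector without Cre. Every animal therefore carried an AAV8 vector. All were injected at 6 months of age and examined 3 weeks later. Cre was directed to hepatocytes, so the other liver cells, among them the stellate cells and fibroblasts that make most fibril collagen, kept their H3.3 genes by design. For the floxed mice, HIRA fl/fl is entered as genotype in the labels, while the titles name H3f3a and H3f3b and were followed.

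H3f3a stood at 25.7% to 30.6% of the control mean in the 4 H3.3 KO livers and H3f3b at 24.9% to 35.4%. Total counts ran from 14998426 in KO 1 to 26096141 in MCS 1, and every other library had at least 20862860 counts. Each library was from a separate mouse as labelled, and p-values measure the spread between these livers only. In whole-liver RNA, more or fewer cells of a type and more or less RNA per cell cannot be told apart, and this holds for every difference below.

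Collagens are extracellular matrix proteins built from trimers of alpha chains, each chain being encoded by its own gene. Fibril-forming collagens give tissue its tensile strength, basement membrane collagens form sheets beneath epithelium and along vessels, beaded filament collagen links cells to fibrils, and FACIT collagens decorate fibril surfaces. In the liver, hepatic stellate cells and portal fibroblasts are known as the main source of scar collagen, while hepatocytes are known to make the multiplexin Col18a1, the precursor of endostatin.

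Many collagen transcripts were higher in H3.3 KO livers than in the 6 pooled controls. A gene was called when its edgeR adjusted p was under 0.05 and its log2 fold change was beyond 1 in either direction. By this rule 19 of the 40 tested collagen genes were called higher and 2 lower, against 12.9% of all tested genes called higher and 5.79% called lower. The calls went up in 6 of 9 fibrillar genes, 2 of 6 basement membrane genes, 5 of 6 beaded filament genes, 4 of 8 FACIT genes, 1 of 2 multiplexin genes and in Col28a1. They went down in the fibrillar gene Col5a3 and the FACIT gene Col9a1. Of the genes called higher, Col22a1 and Col28a1 had at most 2 counts in any control and passed the count minimum only with their KO counts. Neither was called by edgeR against the WT Cre controls alone (adjusted p of 0.183 and 0.123) or the MCS controls alone (0.0565 and 0.0883). None of the 4 transmembrane genes, 3 network-forming genes or the anchoring fibril gene Col7a1 was called. At an adjusted p under 0.05 without the fold threshold, 22 genes were higher and 2 lower, where the shares over all tested genes were 19.7% and 16.6%. The median log2 fold change of the 40 genes was 1.04, beside -0.00299 over all tested genes. With scaling to library size alone, the median over all genes shifted to 0.172, and collagen calls became 20 higher and 2 lower. In 16 of the 40 genes every KO liver lay above every control, and in 2 every KO liver lay below, compared with 12.5% and 12% of all tested genes.

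**Figure D1:**
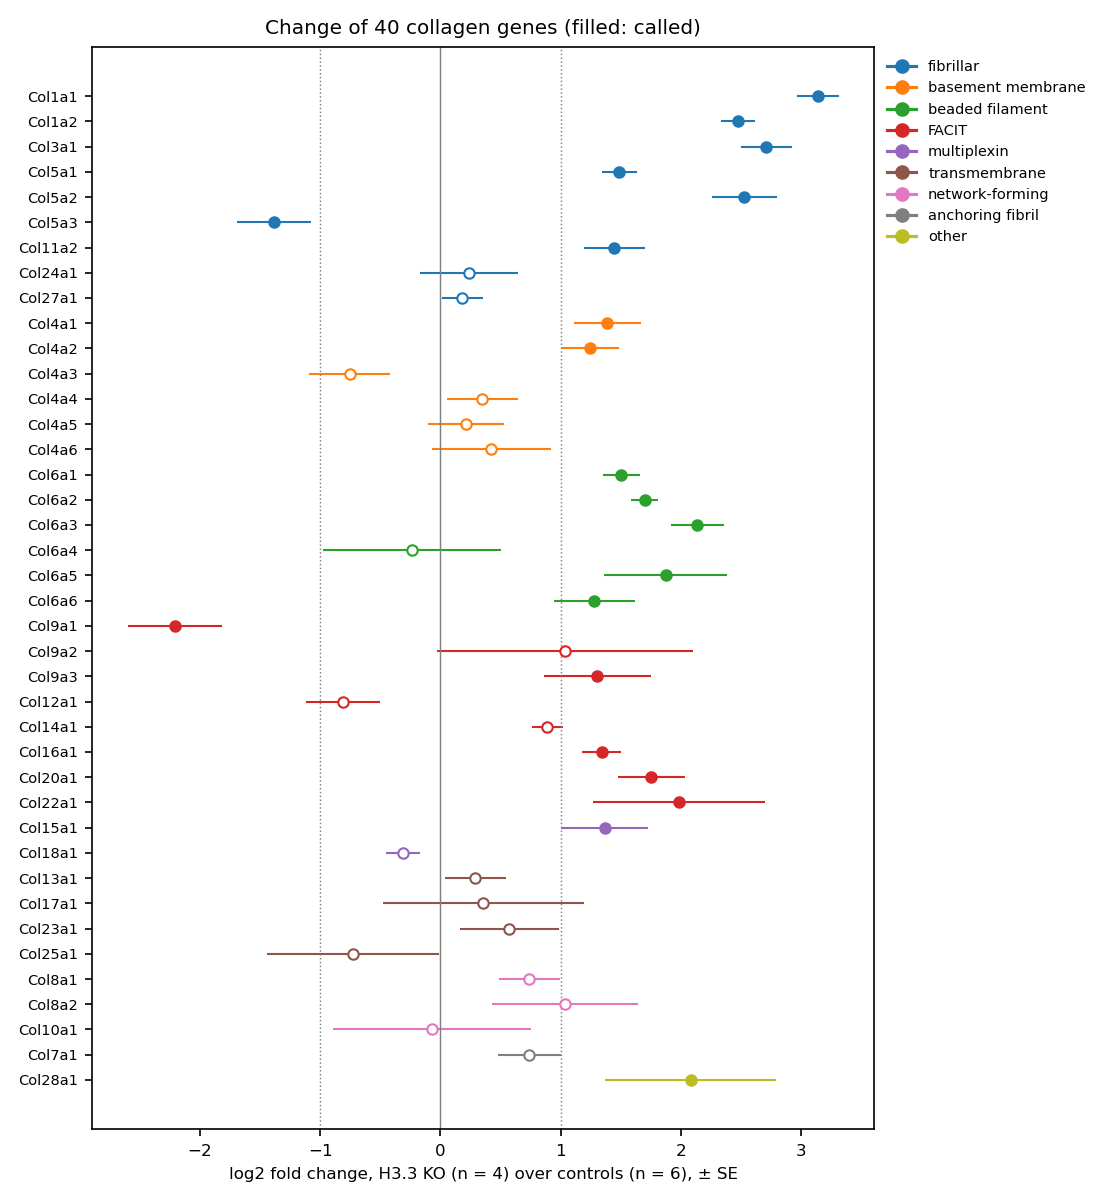
Log2 fold change of each of the 40 tested collagen genes in H3.3 KO livers (n = 4) over controls (n = 6), with bars for 1 SE and colours for the structural class. Filled points passed the call rule and dotted lines mark its fold threshold, and the filled points to the left are Col5a3 and Col9a1 (-1.38 and -2.21).

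The fibrillar genes held the largest differences among well-measured members. Col1a1 (chr11:94936224-94953042) encodes the chain that contributes most of type I collagen, the main protein of scar tissue. Levels are given as CPM, counts-per-million with TMM-adjusted library sizes. Col1a1 was at 5.79, 9.46 and 5.52 CPM in the WT Cre controls, 8.47, 7.05 and 5.98 in the MCS controls and 48.8, 62.4, 56.1 and 80.2 in KO 1 to 4. No KO liver came near the control range, and the mean rose from 7.04 ± 1.6 (SD, n = 6) to 61.9 ± 13.4 (SD, n = 4) CPM (log2 fold change 3.13, SE 0.175, adjusted p of 1.53e-07). Col1a2 (chr6:4504814-4541544), the partner chain of type I collagen, was at 10.5, 13.7 and 9.09 CPM, 11.9, 10.8 and 11.1 CPM and 51.1, 58, 56.4 and 82.7 CPM in the same order. It rose in all 4 KO livers by a smaller step than Col1a1 (log2 fold change 2.47, SE 0.142, adjusted p of 1.46e-07), and this inequality is tested below as a ratio.

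Col3a1 (chr1:45311538-45349706), which forms type III collagen of compliant tissues and early scars, was the most abundant fibrillar gene in KO livers. It read 22.2, 29.6 and 19.8 CPM in WT Cre controls, 17.9, 17.1 and 18.3 CPM in MCS controls and 101, 122, 114 and 208 CPM in KO 1 to 4. KO 4 was far above the other KO livers, and the lowest KO liver was still above the highest control (log2 fold change 2.71, SE 0.212, adjusted p of 5.09e-06). In all, 13 of the 44 genes share exon positions with another gene. For Col4a1, Col4a2, Col4a3, Col5a1, Col6a4, Col6a6, Col9a3, Col10a1, Col15a1 and Col22a1 it lies on the other strand, and their counts are uncertain as far as the counting ignored strand, which the sources used here do not give. For Col3a1, Col7a1 and Col20a1 it lies on the same strand. An exon of Col3a1 shares positions with the gene model Gm47302 on the same strand, so a part of its reads could belong to either. Col5a2 (chr1:45374321-45503282) lies tail to tail with Col3a1 at a gap of 24614 bases and encodes a chain of type V collagen, which is known to start fibrils. It went from 2.00, 2.43 and 2.22 CPM and 0.977, 1.79 and 2.4 CPM in the controls to 8.34, 10.1, 8.51 and 18.2 CPM in KO (log2 fold change 2.53, SE 0.268, adjusted p of 2.56e-05). Again KO 4 was the highest liver and the groups did not overlap.

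The remaining type V chains moved in opposite directions. Col5a1 (chr2:27886425-28039514), the partner of Col5a2 in the common form of type V collagen, was at 8.29, 8.11 and 7.5 CPM, 8.63, 7.32 and 7.49 CPM and 15.6, 20.8, 22.3 and 29.6 CPM. Controls were tight and all KO livers were above them (log2 fold change 1.49, SE 0.146, adjusted p of 1.25e-05). Col5a3 (chr9:20770050-20815067), a chain of restricted distribution, was at 117, 100.4 and 100.4 CPM, 109.9, 94.2 and 62.5 CPM and 49.5, 47.1, 38.3 and 14.6 CPM. It fell in every KO liver below the lowest control, MCS 3, and KO 4 was lowest by a wide margin (log2 fold change -1.38, SE 0.311, adjusted p of 0.00592). Over the fits that left out 1 liver, the log2 fold change of Col5a3 ran from -1.55 to -1.12. In controls Col5a3 had been the second most expressed collagen gene per length.

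The RefSeq promoters of Col3a1, Col5a1 and Col5a3 are shown because these genes carry the largest rise with a promoter sequence at hand and the opposite changes within type V collagen. Each is the stretch of 250 bases before the transcription start (GRCm38.p6), read 5′ to 3′ on the gene's own strand. Capitals mark matches on either strand to the TATA box (TATAAA), to the CCAAT box (CCAAT), to the GC box bound by Sp1 (GGGCGG), to the AP-1 site (TGANTCA) or to the TEAD site (GGAATG). No matches overlapped in these promoters.
Col3a1, chr1:45311288-45311537, plus strand: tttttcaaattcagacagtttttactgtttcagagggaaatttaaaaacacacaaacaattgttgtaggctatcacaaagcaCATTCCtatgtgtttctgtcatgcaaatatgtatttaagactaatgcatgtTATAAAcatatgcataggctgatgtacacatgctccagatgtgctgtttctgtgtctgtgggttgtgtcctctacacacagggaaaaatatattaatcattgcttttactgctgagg
Col5a1, chr2:27886175-27886424, plus strand: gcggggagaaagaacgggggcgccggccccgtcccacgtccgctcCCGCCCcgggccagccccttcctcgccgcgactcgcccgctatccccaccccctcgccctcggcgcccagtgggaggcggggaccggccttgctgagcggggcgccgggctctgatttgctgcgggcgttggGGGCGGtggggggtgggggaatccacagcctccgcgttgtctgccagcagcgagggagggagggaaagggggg
Col5a3, chr9:20815068-20815317, minus strand: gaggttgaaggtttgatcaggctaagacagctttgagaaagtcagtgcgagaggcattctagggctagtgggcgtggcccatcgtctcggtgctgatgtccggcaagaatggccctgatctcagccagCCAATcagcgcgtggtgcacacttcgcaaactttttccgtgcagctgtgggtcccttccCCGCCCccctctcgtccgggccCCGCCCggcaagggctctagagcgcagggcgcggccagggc
Col3a1 had TATAAA from position -117, on its own strand, and GGAATG from -168 on the other, with no GGGCGG. Col5a1 had GGGCGG from -205 on the other strand and from -73 on its own. Col5a3, which fell, also had GGGCGG, from -63 and -41 on the other strand, and CCAAT from -122 on its own. RefSeq gave 38 such windows for 35 of the 44 collagen genes, the others being Col1a1, Col2a1, Col4a3, Col5a2, Col9a3, Col12a1, Col14a1, Col22a1 and Col26a1. GGGCGG was found in 57.9% of the collagen windows and in 32.7% of all 32851 windows, CCAAT in 34.2% and 33.8%, TATAAA in 13.2% and 12.4%, GGAATG in 10.5% and 12.6%, and TGANTCA in 2.63% and 6.75%. These are counts of letters only.

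The other fibrillar genes were lower in level. Col11a2, a chain of cartilage-type fibrils, was at 0.792, 0.867 and 0.754 CPM in WT Cre controls, 0.977, 1.03 and 1.45 CPM in MCS controls and 3.06, 1.7, 2.19 and 3.67 CPM in KO 1 to 4, without overlap (log2 fold change 1.44, SE 0.255, adjusted p of 0.000785). On the deposited FPKM the call ended, with log2 fold changes of 0.18 and 0.54 on log2(FPKM + 1) and log2(FPKM + 0.1) and adjusted p of 0.405 and 0.335. Col27a1 was a well-expressed exception, at 67.7, 51.6 and 42.9 CPM in WT Cre controls, 62.8, 57.1 and 35.2 CPM in MCS controls and 61.1, 71.1, 59.3 and 48.3 CPM in KO 1 to 4, with overlapping groups and no call (log2 fold change 0.18, SE 0.17, adjusted p of 0.448). Col24a1 had 3 to 11 counts in controls and 3 to 18 in KO and was not called (log2 fold change 0.24, SE 0.407, adjusted p of 0.691). Col2a1 and Col11a1, the remaining fibrillar genes, had at most 1 count in any library.

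**Figure D2:**
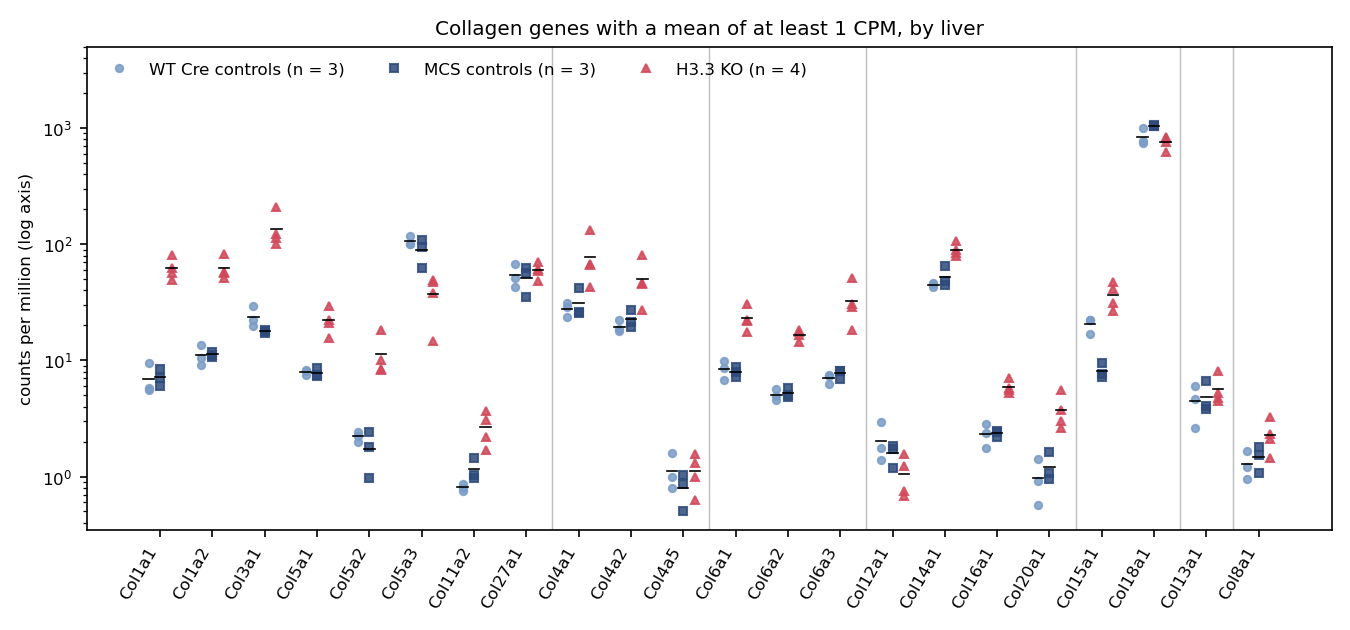
CPM on a log axis for the 22 collagen genes with a mean of at least 1 CPM over all livers, with 1 symbol per liver and black dashes for group means. In Col1a1 the KO livers lie at 48.8 to 80.2 CPM above controls at 5.52 to 9.46 CPM, whereas in Col5a3 they lie below and in Col27a1 they overlap.

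Among the basement membrane genes, Col4a1 and Col4a2 rose together. They encode the alpha chains of the ubiquitous type IV network and lie head to head on chromosome 8, where their transcripts start at 11312826 and 11312805 on opposite strands and overlap by 22 bases. Col4a1 (chr8:11198423-11312826) was at 31.4, 28.8 and 23.6 CPM, 26.2, 25.8 and 42.1 CPM and 42.8, 66, 67.7 and 133 CPM. KO 4 stood far above the other KO livers, and KO 1 only just exceeded MCS 3 (log2 fold change 1.39, SE 0.276, adjusted p of 0.00305). Col4a2 (chr8:11312805-11449287) was at 22.4, 18.5 and 17.7 CPM, 21.2, 19.5 and 27 CPM and 27.4, 46.7, 45 and 80.3 CPM, in the same order of KO livers at both ends (log2 fold change 1.25, SE 0.238, adjusted p of 0.00204). Without KO 4 their log2 fold changes were 0.99 and 0.92, just under the fold threshold, with adjusted p of 0.002 and 0.00138. The chains of specialised basement membranes did not pass the test. Col4a5 was at 1.58, 0.998 and 0.794 CPM, 0.855, 1.03 and 0.503 CPM and 1.3, 0.988, 0.632 and 1.57 CPM, with overlapping groups (log2 fold change 0.21, SE 0.318, adjusted p of 0.648). Col4a3, Col4a4 and Col4a6 had 2 to 22 counts in controls and 2 to 21 in KO, with log2 fold changes of -0.76, 0.35 and 0.42 and adjusted p of 0.0979, 0.39 and 0.547.

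The beaded filament genes of type VI collagen, a microfibril around cells and vessels, changed in the same direction where they were well expressed. Col6a1 (chr10:76708792-76726168) was at 9.96, 8.54 and 6.75 CPM, 7.98, 7.19 and 8.72 CPM and 17.6, 21.7, 22.5 and 30.9 CPM (log2 fold change 1.5, SE 0.152, adjusted p of 1.58e-05). Col6a2 (chr10:76595762-76623630), its neighbour on the same strand, was at 4.96, 5.68 and 4.53 CPM, 5.74, 5.00 and 4.86 CPM and 14.3, 16.6, 17.4 and 18.2 CPM (log2 fold change 1.7, SE 0.113, adjusted p of 5.61e-07). Both sets of KO livers were clear of the controls, and the mean of Col6a2 went from 5.13 ± 0.482 (SD, n = 6) to 16.6 ± 1.7 (SD, n = 4) CPM. Col6a3 (chr1:90765923-90843971), the long chain that completes the classical trimer, was at 7.46, 7.37 and 6.23 CPM, 8.14, 6.96 and 8.05 CPM and 18.2, 28.6, 30.6 and 51.6 CPM (log2 fold change 2.13, SE 0.22, adjusted p of 3.04e-05). Here KO 4 stood apart from the other KO livers, and KO 1 was the lowest of them. The chains that can replace Col6a3 were rare. Col6a5 had 3 to 27 counts in controls and 15 to 57 in KO, and Col6a6 had 5 to 19 and 10 to 36. Their groups overlapped, although both were called (log2 fold changes of 1.87 and 1.28, adjusted p of 0.0133 and 0.00947). On log2(FPKM + 1) and log2(FPKM + 0.1) neither was called, Col6a5 having adjusted p of 0.388 and 0.289 and Col6a6 log2 fold changes of 0.077 and 0.47. Col6a4 had 0 to 3 counts and was not called (adjusted p of 0.836).

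The FACIT genes moved in both directions. Col14a1 (chr15:55307750-55520803), which binds fibrils and was the best-expressed of them, was at 45.4, 46.8 and 42.6 CPM, 48.3, 44.2 and 65.1 CPM and 80.0, 83.9, 89.4 and 107 CPM. All KO livers were above all controls, but the change stayed under the fold threshold (log2 fold change 0.89, SE 0.127, adjusted p of 0.000176) and passed it with scaling to library size, at 1.08. Against the WT Cre controls alone it was called, at 1.00 (adjusted p of 0.000484), and against the MCS controls it was at 0.78 (adjusted p of 0.00175). Col16a1 was at 2.38, 2.82 and 1.75 CPM in WT Cre controls, 2.4, 2.19 and 2.46 CPM in MCS controls and 5.73, 5.22, 5.6 and 7.04 CPM in KO 1 to 4 (log2 fold change 1.34, SE 0.16, adjusted p of 5.07e-05). Col20a1 was at 1.42, 0.564 and 0.913 CPM, 1.63, 1.07 and 0.95 CPM and 5.54, 3.72, 3.03 and 2.64 CPM (log2 fold change 1.75, SE 0.281, adjusted p of 0.000404). In both the groups were separate, and an exon of Col20a1 overlaps BX649560.1 on the same strand. Col9a1, a chain of cartilage type IX collagen, had 11 to 21 counts in controls and 1 to 4 in KO and fell (log2 fold change -2.21, SE 0.392, adjusted p of 0.000818). On the same FPKM scales its log2 fold change was -0.59 and -0.86, under the fold threshold. Its partner Col9a3 went the other way, from 2 to 8 counts in controls to 4 to 22 in KO (log2 fold change 1.3, SE 0.441, adjusted p of 0.0337). That call ended when WT Cre 2, MCS 1, MCS 2, KO 2 or KO 4 was left out, with adjusted p of 0.0658, 0.0663, 0.0616, 0.16 and 0.0501. Col22a1 had 0 to 2 counts in controls and 1 to 4 in KO (log2 fold change 1.98, SE 0.712, adjusted p of 0.0435), and its call held only without WT Cre 1 or KO 1 among the 10 fits that left out 1 liver, where the adjusted p ran from 0.0224 to 0.108. Col12a1 leaned lower without a call, at 1.75, 1.39 and 2.98 CPM in WT Cre controls, 1.83, 1.74 and 1.17 CPM in MCS controls and 1.56, 0.751, 0.674 and 1.22 CPM in KO 1 to 4 (log2 fold change -0.81, SE 0.308, adjusted p of 0.0545), and passed without KO 1 (-1.04, adjusted p of 0.0184). Col9a2 had 0 to 3 counts and was not called (adjusted p of 0.489), and Col19a1 had 1 count in all.

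The multiplexins, which lie between basement membranes and the matrix, held the gene with the highest level. Col18a1 (chr10:77052178-77166548) was at 1004, 769 and 748 CPM, 1064, 1039 and 1038 CPM and 819, 843, 761 and 619 CPM. The KO livers lay within the range of the WT Cre controls except KO 4, and the difference from all controls did not pass (log2 fold change -0.31, SE 0.142, adjusted p of 0.105). Col15a1 (chr4:47208161-47313167), found in vascular basement membrane zones, was at 22.1, 16.9 and 22.2 CPM, 9.44, 7.59 and 7.21 CPM and 26.7, 47.6, 41.3 and 31.4 CPM. It rose (log2 fold change 1.36, SE 0.363, adjusted p of 0.0154), with the WT Cre controls between the MCS controls and the KO livers.

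Members of the remaining classes were mostly near the detection limit. Col13a1, a transmembrane collagen, was at 4.67, 2.6 and 6.03 CPM in WT Cre controls, 4.03, 3.79 and 6.71 CPM in MCS controls and 4.5, 4.74, 5.27 and 8.07 CPM in KO 1 to 4 (log2 fold change 0.29, SE 0.25, adjusted p of 0.399). Col17a1, Col23a1 and Col25a1 had 0 to 16 counts and adjusted p of 0.776, 0.31 and 0.467. Col8a1, a network-forming chain of vessel walls, was at 1.67, 1.21 and 0.953 CPM in WT Cre controls, 1.55, 1.79 and 1.06 CPM in MCS controls and 1.43, 2.1, 3.24 and 2.33 CPM in KO 1 to 4, with an adjusted p under the threshold but a fold change under it as well (log2 fold change 0.74, SE 0.251, adjusted p of 0.0349). Col8a2 and Col10a1 had 0 to 22 counts and adjusted p of 0.209 and 0.96. Col7a1, the anchoring fibril collagen, had 11 to 24 counts in controls and 16 to 37 in KO, did not overlap between groups in CPM and missed the fold threshold (log2 fold change 0.74, SE 0.262, adjusted p of 0.042). Col28a1 had 0 to 2 counts in controls and 2 to 6 in KO (log2 fold change 2.08, SE 0.711, adjusted p of 0.0355). Leaving out WT Cre 2, WT Cre 3, MCS 1, MCS 2, KO 1 or KO 3 ended that call, with adjusted p of 0.0541 to 0.104. Col26a1 had at most 1 count in any library. In all, 22 of the 44 genes had a mean under 1 CPM and totals of 1 to 213 counts, and 5 of the 19 higher calls and 1 of the 2 lower calls were among them.

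Levels between genes were compared as CPM per kilobase of exon (all annotated exons of a gene merged, mean ± SD). On that scale Col18a1 was first in both groups, at 134 ± 20.6 in controls and 108 ± 14.3 in KO. The order below it changed. Controls had Col5a3 (14.3 ± 2.77), Col14a1 (6.95 ± 1.18) and Col27a1 (4.06 ± 0.942) next, of which the last could not be told from Col4a1 (3.97 ± 0.896) given the spread. KO livers had Col3a1 (13.9 ± 4.94), Col14a1 (12.9 ± 1.72) and Col4a1 (10.4 ± 5.19), followed by Col1a1 (9.43 ± 2.05), and the SDs of these 4 genes overlapped. Within each single KO liver, Col3a1 and Col14a1 were nevertheless above Col1a1, whereas Col4a1 was above it in some and below it in others. Col5a3 dropped from the second to the eighth place (5.49 ± 2.34). Col3a1 had been eighth (2.12 ± 0.475) in controls, and Col1a1 had been at 1.07 ± 0.244.

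Summed over all 44 genes, collagen took 1079 to 1431 CPM in the controls and 1410 to 1586 CPM in KO, so that KO 1 lay within the control range. Without Col18a1 the sum was 324 to 397 CPM in controls and 592 to 967 CPM in KO, and the groups separated. Per length, Col18a1 made up 70.0% to 77.7% of the collagen total in controls and 42.3% to 61.2% in KO, lowest in KO 4. Among the other genes, Col5a3 had 21.3% to 34.1% in controls and 1.79% to 9.83% in KO, Col3a1 had 3.85% to 6.44% and 13.2% to 17.6%, and Col1a1 had 1.71% to 3.07% and 9.72% to 10.4%. These shares follow from the levels above and were not tested on their own.

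**Figure D3:**
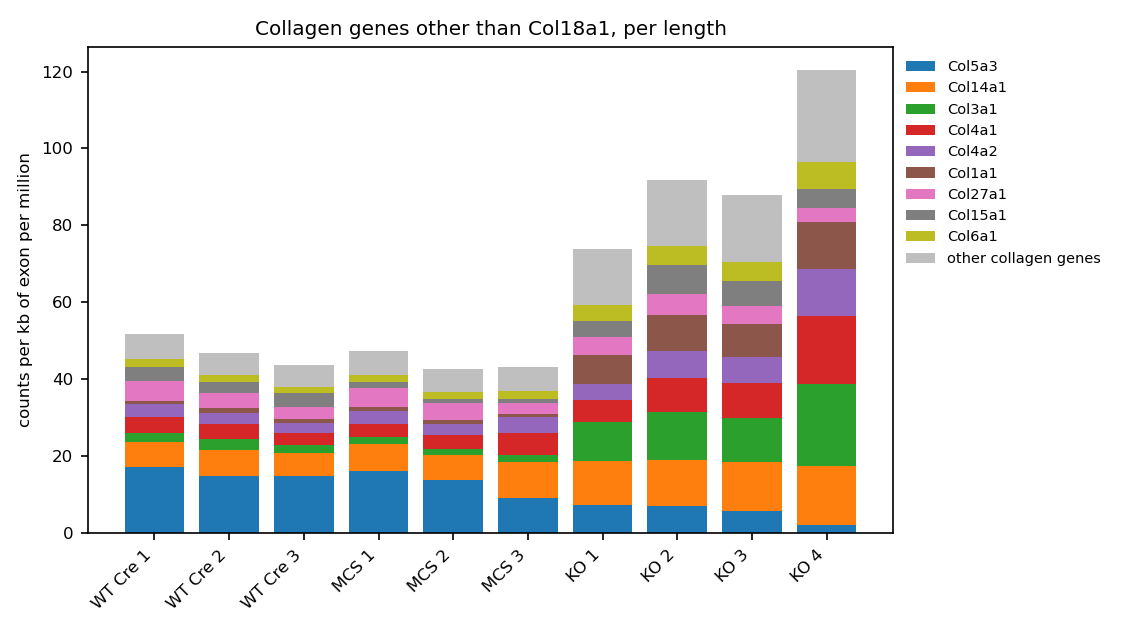
CPM per kilobase of exon for collagen genes other than Col18a1, stacked by gene for each liver. The stack reaches 42.5 to 51.7 in controls and 73.9 to 120 in KO, with the Col5a3 segment shrinking while Col3a1, Col1a1, Col4a1 and Col4a2 widen.

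Ratios within a liver do not depend on library scaling, and 5 ratios of chains that assemble together or share fibrils were compared between KO and controls. The test was an exact permutation of the livers over all 210 splits, two-sided and adjusted over the 5 ratios. Col1a1 counts were 0.54 to 0.71 of Col1a2 counts in controls and 0.954 to 1.08 in KO. Counts in these ratios are not corrected for exon length (6563 bases for Col1a1, 12426 for Col1a2), so they do not give the proportion of the chains. The mean log2 ratio differed by 0.68 (p of 0.00476, the smallest possible, adjusted 0.0119), and all KO livers were above all controls. Col5a1 counts were 3.12 to 8.83 times those of Col5a2 in controls and 1.63 to 2.62 times in KO, where the log2 ratio fell by 1.05 (exact p of 0.00476, adjusted 0.0119) and the ranges again did not meet. Without KO 1 or KO 4 the adjusted p of both ratios was 0.0595, although the KO livers left still did not overlap the controls in either. For Col1a1/Col1a2 no other split gave so large a difference, so its p before adjustment stayed the smallest possible. For Col5a1/Col5a2 a split that set MCS 1 and other controls apart gave a larger difference. Adjustment over the 5 ratios carried this to both. Leaving out KO 2 or KO 3 reduces the splits equally and did not bring either adjusted p over 0.05. Col3a1 to Col1a1 ratios were 2.12 to 3.83 and 1.96 to 2.59, a log2 difference of -0.47 that did not pass after adjustment (exact p of 0.0476, adjusted 0.0794), and without MCS 1 it did (-0.56, adjusted 0.0397). Col4a1 to Col4a2 ratios were 1.23 to 1.56 and 1.41 to 1.66 (exact adjusted p of 0.149), and Col6a1 to Col6a2 ratios were 1.39 to 2.01 and 1.23 to 1.7 (exact adjusted p of 0.157). Neither difference passed, and the ranges of the groups overlapped in both.

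**Figure D4:**
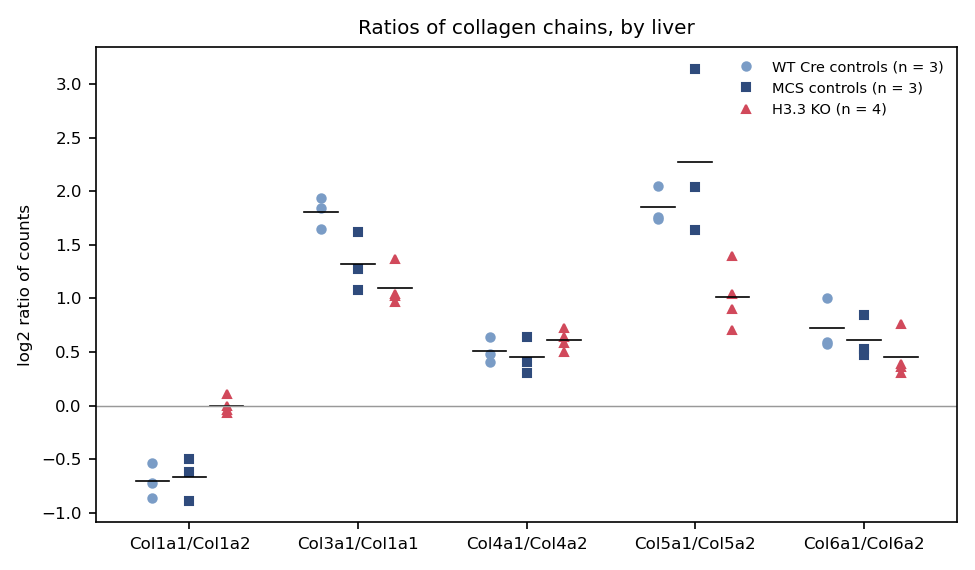
Log2 ratio of the counts of 2 collagen chains in each liver, with black dashes for group means. KO livers lie above all controls for Col1a1/Col1a2 and below all controls for Col5a1/Col5a2 and overlap them for the other 3 ratios.

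Each kind of control was then set against KO in a fit of the 3 groups. These comparisons share the KO livers, and the assignment of control columns to a kind rests on the numbers in the library names, while the pooled comparison does not. Against the WT Cre controls, which share the virus with KO, 16 collagen genes were called higher and 2 lower, where 10.6% and 5.33% of all tested genes were. Against the MCS controls, which share the floxed alleles, 15 were higher and 2 lower, where 11.9% and 5.54% of all genes were. Col1a1 had log2 fold changes of 3.16 and 3.11 over the WT Cre and MCS controls, Col3a1 of 2.51 and 2.94, Col6a2 of 1.72 and 1.68, and Col5a3 of -1.51 and -1.25. Between the kinds of control, 1 of the 40 genes was called, against 0.298% of all tested genes called higher and 0.343% called lower. This was Col15a1, higher in the WT Cre than in the MCS controls (log2 fold change 1.33, adjusted p of 0.0106), and the call was absent without WT Cre 1, WT Cre 3, MCS 2 or MCS 3. Because KO is common to both comparisons, this is also the difference between its KO effects, which were 0.85 over WT Cre and 2.18 over MCS (adjusted p of 0.00647 and 2.31e-05). Col18a1 was -0.14 against WT Cre (adjusted p of 0.489) and -0.46 against MCS (0.0259), and the difference between its 2 effects did not pass (adjusted p of 0.494).

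The KO livers were not alike. Of the 19 genes called higher, KO 4 was the highest KO liver in 12 and KO 1 the lowest in 14, and both genes called lower were lowest in KO 4. The median of those 19 genes, as log2 of the level over the control mean, was 1.31 in KO 1, 1.74 in KO 2, 1.63 in KO 3 and 1.91 in KO 4. KO 1 was also the library with the fewest counts. H3f3a was at 25.8%, 30.2%, 25.7% and 30.6% of the control mean in KO 1 to 4 and H3f3b at 24.9%, 33.6%, 32.4% and 35.4%, so KO 4 had the highest remaining level of both.

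Genes whose products modify, cut, cross-link, degrade or bind collagen were counted in lists of 52 genes, of which 49 were tested. Of these, 17 were called higher and 0 lower, beside the 12.9% and 5.79% of all tested genes. At an adjusted p under 0.05 alone 26 were higher and 3 lower (Mia3, Tmem38b and Loxl4), beside 19.7% and 16.6% of all tested genes by that rule, and the median log2 fold change was 0.94. Among the genes for propeptide cleavage and cross-linking 7 of 11 were called higher, among those for degradation and its inhibitors 4 of 10, among the receptors 3 of 9, and among those for chain modification and folding 3 of 19.

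Within chain modification, Serpinh1 (the collagen chaperone HSP47) was at 9.64 to 27.8 CPM in controls and 24.5, 29.4, 30.4 and 85.8 CPM in KO 1 to 4. The groups overlapped and the call (log2 fold change 1.44, SE 0.406, adjusted p of 0.0212) was lost without KO 4, at 0.84. Serpinh1 was not called over either kind of control alone (adjusted p of 0.0736 over WT Cre and 0.0805 over MCS). Plod2, which hydroxylates the telopeptide lysines used for stable cross-links, was at 0.357 to 0.977 CPM and 1.37 to 3.75 CPM (log2 fold change 1.7, SE 0.317, adjusted p of 0.00115). Plod1 and Plod3, the other lysyl hydroxylases, had log2 fold changes of 0.01 and 0.40 and were not called. The prolyl hydroxylase subunits P4ha1, P4ha2 and P4hb were not called either, at 0.57, -0.39 and 0.19 (adjusted p of 0.139, 0.13 and 0.19). P4hb was abundant, at 1441 to 1653 CPM in controls and 1654 to 2109.7 CPM in KO.

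In cleavage and cross-linking, Pcolce, the enhancer of procollagen C-proteinase, was at 7.92, 7.46 and 6.19 CPM, 7.9, 7.72 and 5.87 CPM and 28.7, 76.6, 88.9 and 93.7 CPM. It rose least in KO 1 (log2 fold change 3.33, SE 0.277, adjusted p of 1.53e-05). Bmp1, the C-proteinase itself, was at 99.5 to 157 CPM and 107 to 168 CPM and was not called (log2 fold change 0.15, SE 0.144, adjusted p of 0.466). Adamts2, the N-proteinase, was at 3.46 to 5.12 CPM and 9.25 to 16.5 CPM (log2 fold change 1.53, SE 0.163, adjusted p of 2.15e-05). Of the 5 lysyl oxidases, which cross-link the finished fibrils, 3 rose. Lox was at 0.179 to 0.516 CPM and 0.652 to 3.02 CPM (log2 fold change 2.45, SE 0.372, adjusted p of 0.000269), Loxl1 at 0.95 to 2.05 CPM and 3.97 to 11 CPM (log2 fold change 2.07, SE 0.273, adjusted p of 9.69e-05) and Loxl2 at 1.38 to 2.69 CPM and 6.97 to 11.3 CPM (log2 fold change 2.03, SE 0.185, adjusted p of 7.32e-06). Loxl3 and Loxl4 stayed under the fold threshold, at 0.75 and -0.58 (adjusted p of 0.00684 and 0.0442).

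The genes called higher included some that break collagen down and one that inhibits this. Mmp2, a gelatinase, was at 2.17 to 3.42 CPM and 7.49 to 12.9 CPM (log2 fold change 1.92, SE 0.181, adjusted p of 9.6e-06), and Mmp13, the main rodent interstitial collagenase, at 0.122 to 0.651 CPM and 2.67 to 5.9 CPM (log2 fold change 3.57, SE 0.33, adjusted p of 8.14e-06). Timp1, an inhibitor of these enzymes, was at 0 to 0.238 CPM in controls, where 1 library had 0 counts, and at 2.09 to 3.56 CPM in KO (log2 fold change 4.64, SE 0.434, adjusted p of 8.66e-06). Mmp14, Timp2 and the lysosomal protease Ctsk had log2 fold changes of 0.80, 0.97 and 0.60, under the fold threshold, with adjusted p of 0.00495, 3.14e-05 and 0.0474. Timp2 passed the threshold with library size scaling (1.15), on both FPKM scales (1.05 and 1.25) and without KO 1 (1.06). Of the receptors, Ddr1 was at 1.17 to 2.3 CPM and 2.41, 5.58, 9.95 and 16.6 CPM in KO 1 to 4 (log2 fold change 2.32, SE 0.425, adjusted p of 0.0017), with KO 1 close to the controls and KO 4 highest. Ddr2, known from mesenchymal cells, was at 3.39 to 5.25 CPM and 6.45 to 10.1 CPM and lay just under the fold threshold (log2 fold change 0.94, SE 0.158, adjusted p of 0.000585), which it passed with library size scaling (1.12), on log2(FPKM + 0.1) (1.13) and without KO 1 (1.04). Lair1, an inhibitory collagen receptor of immune cells, was at 1.33 to 2.91 CPM and 4.82 to 10.3 CPM (log2 fold change 2.07, SE 0.235, adjusted p of 3.52e-05). Of the collagen-binding integrin chains, Itga10 rose from 1.13 to 3.41 CPM to 5.8 to 12.3 CPM, without overlap (log2 fold change 2.28, SE 0.282, adjusted p of 7e-05). Itga1, Itga2 and Itga11 were not called, at 0.06, 1.04 and 1.17 (adjusted p of 0.629, 0.191 and 0.07). Itga11 was called with library size scaling (1.35, adjusted p of 0.0407), without MCS 2 (1.42, 0.0453) and without KO 4 (1.44, 0.0294).

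**Figure D5:**
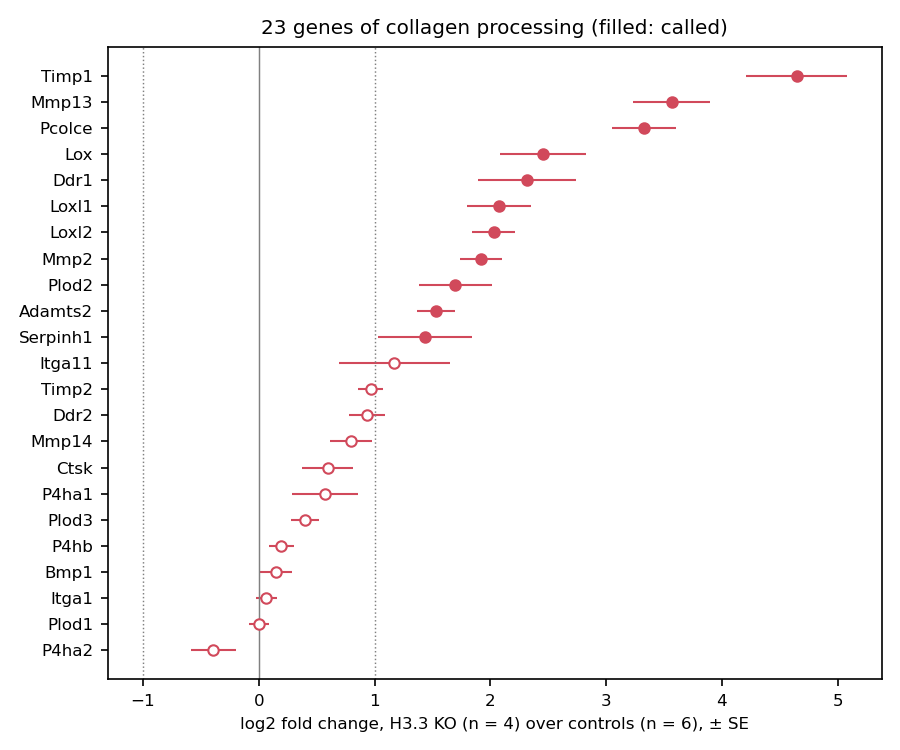
Log2 fold change of 23 genes of collagen processing in H3.3 KO livers (n = 4) over controls (n = 6), with bars for 1 SE, filled where called and dotted lines at the fold threshold. Pcolce lies at 3.33 and its partner enzyme Bmp1 at 0.15, and the prolyl hydroxylase subunits lie between -0.39 and 0.57.

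Marker genes of the liver's cell types were read in the same libraries, where 12.9% of all tested genes were called higher and 5.79% lower, and 19.7% and 16.6% by adjusted p alone. Hepatic stellate cell markers summed to 228 to 288 CPM in controls and 322 to 406 CPM in KO, with 3 of 12 called higher (Hgf, Ngfr and Pdgfrb) and 9 at an adjusted p under 0.05 alone. Portal fibroblast markers summed to 14.2 to 22.6 CPM and 27.8 to 49.3 CPM, with 6 of 10 called higher and 8 by adjusted p alone. Myofibroblast and smooth muscle markers summed to 138 to 185 CPM and 247 to 346 CPM, with 3 of 9 called higher and 5 by adjusted p alone. Kupffer cell and macrophage markers summed to 191 to 369 CPM and 448 to 977 CPM, with 8 of 8 called higher by either rule. Endothelial markers overlapped between groups, at 225 to 287 CPM and 252 to 435 CPM, with 0 of 10 called by edgeR and 2 at an adjusted p under 0.05 alone, and cholangiocyte markers also overlapped, at 50.4 to 81.2 CPM and 72.8 to 91.4 CPM, with 2 of 7 tested called higher by either rule. Hepatocyte markers, which define the tissue, summed to 105403 to 150580 CPM in controls and 75033 to 90882 CPM in KO, with 3 of 10 called lower (Cyp2e1, Tat and Slc10a1) and 9 of 10 lower by adjusted p alone. No marker was at 0 in every library. In KO 4, where most called collagen genes were highest, the stellate, portal fibroblast, myofibroblast, endothelial and macrophage sums were also the highest of all livers and the hepatocyte sum was the lowest. The part of these cell types in the collagen differences was not tested.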

How the data were processed

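Poly(A) RNA of 10 livers was made into strand-marking libraries. The authors aligned the reads with STAR to mm10 and deposited whole-number read counts per gene and, in a second table, FPKM values. HOMER is named for counting in the study's methods and HTSeq and Cufflinks in the submitters' processing notes, and the strand setting is not given in the sources used here. Control columns were matched to their group by the numbers of the library names.

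Genes with at least 10 counts in all were tested with edgeR 4.0.16 in R 4.3.3 (TMM scaling, robust quasi-likelihood F test, Benjamini-Hochberg adjustment over all tested genes). KO was compared with the pooled controls as 2 groups and with each kind of control in a fit of 3 groups. Calls needed an adjusted p under 0.05 with a log2 fold change beyond 1 in either direction. Alternatives used DESeq2 1.42.0, limma 3.58.1 (voom, and log2 of the deposited FPKM plus 1 or 0.1, blanks read as 0), other scalings and filters, a replicate block and leaving out each liver. Samples were named by group and number, and values are given per liver for collagen genes with a mean of at least 1 CPM. In the processing lists, 23 genes were fixed for naming, and others named there or among the markers (Itga2, Itga10, Lair1, Loxl3, Loxl4, Mia3, Tmem38b and the called markers) were chosen after their values were seen. The code was tested on simulated data. The collagen genes and all lists were chosen with earlier results of these data known.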

Additional observations from a re-analysis of the deposited data

Results flagged for a closer look

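Among 56 groups of values checked for a single distant liver at the 95% level, 3 held one, where chance gives about 1 in 20. Col12a1 was at 2.98 CPM in WT Cre 3, while the other controls lay at 1.17 to 1.83 CPM. Col14a1 was at 65.1 CPM in MCS 3, while the other controls lay at 42.6 to 48.3 CPM. The log2 ratio of Col5a1 to Col5a2 was 3.14 in MCS 1, while the other controls lay at 1.64 to 2.05.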

How the results depend on the processing

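KO against all controls gave 14 to 22 collagen genes called higher over the alternatives on counts (14 with a replicate block) and 2 lower in each. On log2(FPKM + 1) there were 10 higher and 1 lower, and on log2(FPKM + 0.1) 13 and 1. On both FPKM scales the calls of Col6a5, Col6a6, Col9a1, Col9a3, Col11a2, Col22a1 and Col28a1 ended. These genes had group means of at most 0.386 CPM per kilobase of exon. Among the collagen genes, 34 deposited FPKM values were above 0 where the count was 0. Why the calls ended was not tested. Col6a6, Col9a1 and Col28a1 kept an adjusted p under 0.05 on both scales and missed only the fold threshold, while the others did not keep it on either. Without 1 liver the counts were 15 to 19 higher, fewest without KO 4, and 2 to 3 lower. Processing genes came to 26 higher and 3 lower by adjusted p alone, to 9 higher on log2(FPKM + 1), and to 16 to 20 higher and 0 lower without 1 liver. Against WT Cre, log2(FPKM + 1) gave 8 higher and 1 lower and log2(FPKM + 0.1) gave 9 higher, and leaving out 1 liver gave 14 to 17 and 2 to 3. Against MCS, 1 gene was lower with library size scaling, with no filter beyond 1 count and with the replicate block, 0 on either FPKM scale, and 1 to 3 without 1 liver, where 12 to 17 were higher. Between controls, the count was 0 on either FPKM scale and 0 to 1 without 1 liver.

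Replicate numbers did not pair the livers, since same-numbered livers had correlations of -0.0387 to 0.111 between their deviations from group means. With the replicate block, in which KO 4 has no partner, the log2 ratio differences were 0.70 for Col1a1/Col1a2 and -0.95 for Col5a1/Col5a2, each with an exact adjusted p of 0.0926. Before adjustment both had the smallest p that this block can give, so a lower value was out of reach. Under the block Col4a1 and Col4a2 were at 0.98 and 0.90, Serpinh1 at 0.87, Itga11 was called at 1.48 (adjusted p of 0.0237) and Col15a1 had an adjusted p of 0.0901. Without 1 liver the differences were 0.64 to 0.72 for Col1a1/Col1a2, -1.18 to -0.84 for Col5a1/Col5a2, -0.56 to -0.39 for Col3a1/Col1a1, 0.096 to 0.17 for Col4a1/Col4a2 and -0.32 to -0.15 for Col6a1/Col6a2. Uncalled genes near 0 changed sign. Col4a5 went to -0.040 and -0.16 on the FPKM scales and ran from -0.014 to 0.42 without 1 liver, and Plod1 went to -0.043 with the block and ran from -0.043 to 0.056 without 1 liver. The cause was not tested for any of these. KO 1 had the lowest depth, and members with few counts are the least certain.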
